A study of Mus musculus with 44 samples.

Results

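The genes described here are the members of the phagocyte NADPH oxidase that carry the symbols Cybb, Cyba, Ncf1 and Ncf4, together with Hvcn1, the voltage-gated proton channel that works beside it. They are 5 of the 50714 gene identifiers that all count files share, and all 5 symbols were found through the GENCODE M21 annotation. The 5 genes were chosen by their measured counts in these same libraries, in every fraction and treatment, so all their levels and differences are given as a description, with standard errors and with no test. Where the number of the 5 past a threshold stands beside the share of all genes, it describes the choice, and nothing is read from it.

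The phagocyte NADPH oxidase passes electrons from NADPH across a membrane to oxygen and so makes superoxide. Its catalytic core is a membrane pair, gp91phox (encoded by Cybb) and p22phox (Cyba), and it stays silent until cytosolic subunits, among them p47phox (Ncf1) and p40phox (Ncf4), arrive at the membrane with a Rac GTPase. Electron transfer leaves protons behind in the cytosol, and the channel encoded by Hvcn1 lets them out, which keeps the enzyme running. In the brain this oxidase is best known from microglia, where it is studied in phagocytosis, inflammation and injury to neurons and synapses.

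The series holds 44 RNA libraries, made from mouse hippocampus together with dorsal cortex at an age of 28 to 29 postnatal days. All mice, controls included, were of the genotype CX3CR1-CreERT2 (+/-) x RPL10a-GFP flox (+/-), in which a recombinase under the Cx3cr1 promoter, once activated by tamoxifen, switches on a GFP-tagged ribosomal protein (the series text writes the second allele as fl/fl). Tamoxifen mice received 100 mg/kg in sunflower seed oil with ethanol at p15, p17 and p19 (days after birth). Controls were given the vehicle, although the series text calls them untreated. Translating ribosome affinity purification (TRAP), which pulls down the GFP-tagged ribosomes with their mRNA, was applied to whole homogenate (MG_TRAP) and to a synaptosome preparation (PeMP_TRAP, titled SN_TRAP in the second set). Total RNA of each starting material was sequenced as Input and SN_input. Each of the 4 fractions has 3 control libraries (letters A to C) and 8 tamoxifen libraries, of which letters D to F belong to a first set with the controls and letters G to K to a second set with tamoxifen mice only. The Cx3cr1 promoter is active in other macrophages and some blood cells as well as in microglia, the labels do not state how many animals a letter holds, and p-values therefore measure the spread between libraries, which may be partly technical.

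The libraries held 740679 to 35427238 reads assigned to the shared identifiers, which is the base of the CPM values used below (a gene's count scaled to its library's assigned reads). The 5 tamoxifen PeMP_TRAP libraries of the second set were deep, with 20352794 to 35427238 assigned reads, and yet detected the fewest genes, 5372 to 7369 against 11694 to 13096 in PeMP_TRAP of the first set. All 10 microglial marker genes on a fixed list were detected in every group, and their summed level ran from 150.3 to 266.8 CPM in tamoxifen Input, 8153 to 24040 CPM in tamoxifen MG_TRAP and 4784 to 18830 CPM in tamoxifen PeMP_TRAP. Control immunoprecipitates held 1433 to 4383 CPM (MG_TRAP) and 287.1 to 3491 CPM (PeMP_TRAP) of the same list. In bulk libraries, fewer cells of a type and less RNA per cell cannot be told apart.

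The promoters are shown because Cyba and Ncf1 were high in the same libraries while Cybb was not. RefSeq windows of the build GRCm38.p6 were matched for 3 of the 5 genes, Cybb, Cyba and Ncf1, and the 250 bases before each RefSeq gene start are printed on the gene's own strand. For Cybb the RefSeq start differs from that of GENCODE M21, whose longer gene span (given with its counts) contains the printed window. Capitals mark matches, on either strand, to the ETS core GGAA, recognised by PU.1 (Spi1) among many ETS factors, and to the interferon regulatory factor (IRF) element, spelled GAAA, any 2 bases, GAAA. Both patterns were chosen after the windows had been seen.
Cybb, chrX:9469325-9469574, minus strand: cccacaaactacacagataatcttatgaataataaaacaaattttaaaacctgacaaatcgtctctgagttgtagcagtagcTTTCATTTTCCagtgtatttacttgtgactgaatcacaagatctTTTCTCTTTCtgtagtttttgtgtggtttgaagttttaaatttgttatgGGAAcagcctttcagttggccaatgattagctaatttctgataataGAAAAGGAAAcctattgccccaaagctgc
Cyba, chr8:122432941-122433190, minus strand: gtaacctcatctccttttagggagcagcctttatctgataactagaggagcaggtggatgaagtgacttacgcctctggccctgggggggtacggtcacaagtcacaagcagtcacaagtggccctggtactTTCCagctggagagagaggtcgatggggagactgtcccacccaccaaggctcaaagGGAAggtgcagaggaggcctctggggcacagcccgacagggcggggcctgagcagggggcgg
Ncf1, chr5:134229626-134229875, minus strand: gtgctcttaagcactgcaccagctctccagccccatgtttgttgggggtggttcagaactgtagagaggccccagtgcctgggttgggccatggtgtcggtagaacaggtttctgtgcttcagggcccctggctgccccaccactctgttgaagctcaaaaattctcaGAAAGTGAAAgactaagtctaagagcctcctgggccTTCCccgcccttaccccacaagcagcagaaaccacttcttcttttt

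The Cybb window held 3 matches to the IRF element, counted from the gene start at bases -29 to -20, -124 to -115 and -168 to -159, and the first and last of these overlap a GGAA match. The Ncf1 window held 1, at bases -82 to -73, and the Cyba window held 0. Of 32851 RefSeq windows of 250 bases, 2.98% hold the IRF element. GGAA matched 3 times in the Cybb window, 2 times in the Cyba window and 1 time in the Ncf1 window, and 93.5% of all windows hold it. The longer patterns GAGGAA (in 23.3% of windows) and the composite of GGAA, any 2 bases and GAAA (in 2.3%) were searched too and matched none of the 3. A match is a run of letters and not a measured binding site.

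Cyba (ENSMUSG00000006519, chromosome 8, 122424776 to 122432930 on the minus strand) encodes p22phox, the membrane partner that stabilises the catalytic subunit and docks p47phox. Per length of exon it had the highest median of the 5 in every fraction, with tamoxifen and in controls. In Input, Cyba stood at 14.93, 32.21 and 36.68 CPM in the controls and at a lowest of 5.54, a median of 11.2 and a highest of 33.55 CPM in the 8 tamoxifen libraries. Tamoxifen MG_TRAP held 384, 659.1 and 1149 CPM (lowest, median, highest), and every one of these libraries was above every Input and every control library. In control MG_TRAP the values were 40.22, 72.68 and 92.83 CPM.

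In tamoxifen mice the synaptosome fractions showed the same arrangement at other levels, while in controls they did not. SN_input of tamoxifen mice held 31.75, 83.7 and 164.7 CPM of Cyba (lowest, median, highest), so its lowest libraries overlapped the highest Input library. Tamoxifen PeMP_TRAP held 317.6, 1017 and 2779 CPM, again above all 8 SN_input libraries, with letter D the highest and letter I the lowest. Control PeMP_TRAP held 3.54, 59.1 and 100.6 CPM, which overlapped control SN_input at 19.97, 68.88 and 85.14 CPM.

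Ncf1 (ENSMUSG00000015950, chromosome 5, 134220053 to 134229625 on the minus strand) encodes p47phox, the organizer that is phosphorylated on activation and carries the cytosolic complex to p22phox. Its exons share 408 bases, 11.1% of their length, with Gtf2ird2 on the opposite strand, and whether the counting used strand is not given in the sources used here, so a share of its reads is uncertain. Tamoxifen Input held 0.305, 3.1 and 9.93 CPM (lowest, median, highest), against 165.8, 213.3 and 486.2 CPM in tamoxifen MG_TRAP. No library of one group overlapped the other. Control MG_TRAP, at 27.08, 28.97 and 86.23 CPM, lay between them.

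In SN_input of tamoxifen mice, Ncf1 stood at 0.138, 17.8 and 34.01 CPM, and the lowest value, from letter D, rests on 1 read. PeMP_TRAP held 39.88, 226.5 and 501.1 CPM, with letter G the lowest at 39.88 CPM and still above every SN_input library. Control PeMP_TRAP was at 0, 6.2 and 0 CPM in letters A, B and C, below the control SN_input values of 37.84, 28.16 and 20.92 CPM. The control immunoprecipitate thus held more Ncf1 than Input in the whole homogenate and less than SN_input in the synaptosomes.

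Ncf4 (ENSMUSG00000071715, chromosome 15, 78244801 to 78262580 on the plus strand) encodes p40phox, which, by binding phosphatidylinositol 3-phosphate, holds the complex on the phagosome. In tamoxifen Input it reached at most 2.01 CPM, with 2 of 8 libraries at 0. MG_TRAP held 7.44, 109.6 and 167.6 CPM (lowest, median, highest), all above Input, with letter J far below the other 7 libraries, whose lowest was 61.43 CPM. Of the controls, only letter C had more than 1 Ncf4 read in MG_TRAP, with 286 reads or 30.04 CPM.

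The synaptosome libraries divided sharply for Ncf4. SN_input of tamoxifen mice ranged from 0.212 to 8.08 CPM in 7 libraries, while letter D stood at 117.9 CPM. In PeMP_TRAP of the first set, letters D, E and F held 377.5, 11.66 and 52.65 CPM. In the second set, letter G held 32.26 CPM and letters H, I, J and K held no read. In the second-set PeMP_TRAP libraries a count of 3 reads corresponds to 0.0847 to 0.147 CPM, a limit that takes in depth alone. These deep libraries detected only 5372 to 7369 genes, so a count of 0 there is no firm upper bound on the level. Control PeMP_TRAP had no Ncf4 read in any of 3 libraries.

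Hvcn1 (ENSMUSG00000064267, chromosome 5, 122206804 to 122242297 on the plus strand) encodes the proton channel. Its exons share 1574 bases, 44.2% of their length, with Tctn1 on the opposite strand, so its counts carry more uncertainty of assignment than those of the other 4 genes. Tamoxifen Input held at most 1.85 CPM and MG_TRAP 24.05, 36.2 and 51.95 CPM (lowest, median, highest), with no overlap. Control MG_TRAP held 3.62, 0 and 8.19 CPM in letters A, B and C, all below the lowest tamoxifen library.

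In PeMP_TRAP of tamoxifen mice, Hvcn1 split into high and nearly empty libraries. Letters D, F, G and K held 102, 93.16, 75.82 and 90.4 CPM, letters E and I held 4.83 and 2.65 CPM, and letters H and J held no read. SN_input held 0.138, 1.37 and 6.21 CPM (lowest, median, highest), so 4 PeMP_TRAP libraries were far above SN_input and the others overlapped it or fell below. Of the second-set libraries without Ncf4, letter K still held 2305 Hvcn1 reads and letter I held 92.

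Cybb (ENSMUSG00000015340, chromosome X, 9435252 to 9487771 on the minus strand) encodes gp91phox, the subunit that carries the electrons. Its counts were low or 0 in most libraries. All 6 Input libraries of the first set held 0 reads, and the second-set Input libraries held 4, 29, 0, 12 and 4 reads in letters G to K. In tamoxifen MG_TRAP, letters G, H and J held 143, 96 and 773 reads (10.78, 3.5 and 28.47 CPM), and letters D, E, F, I and K held 0, 0, 4, 1 and 0. The control MG_TRAP of letter A held 99 reads, or 7.79 CPM, more than 6 of the 8 tamoxifen MG_TRAP libraries. All 5 PeMP_TRAP libraries of the second set held 0, and the highest PeMP_TRAP value anywhere was 2 reads.

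**Figure D1:**
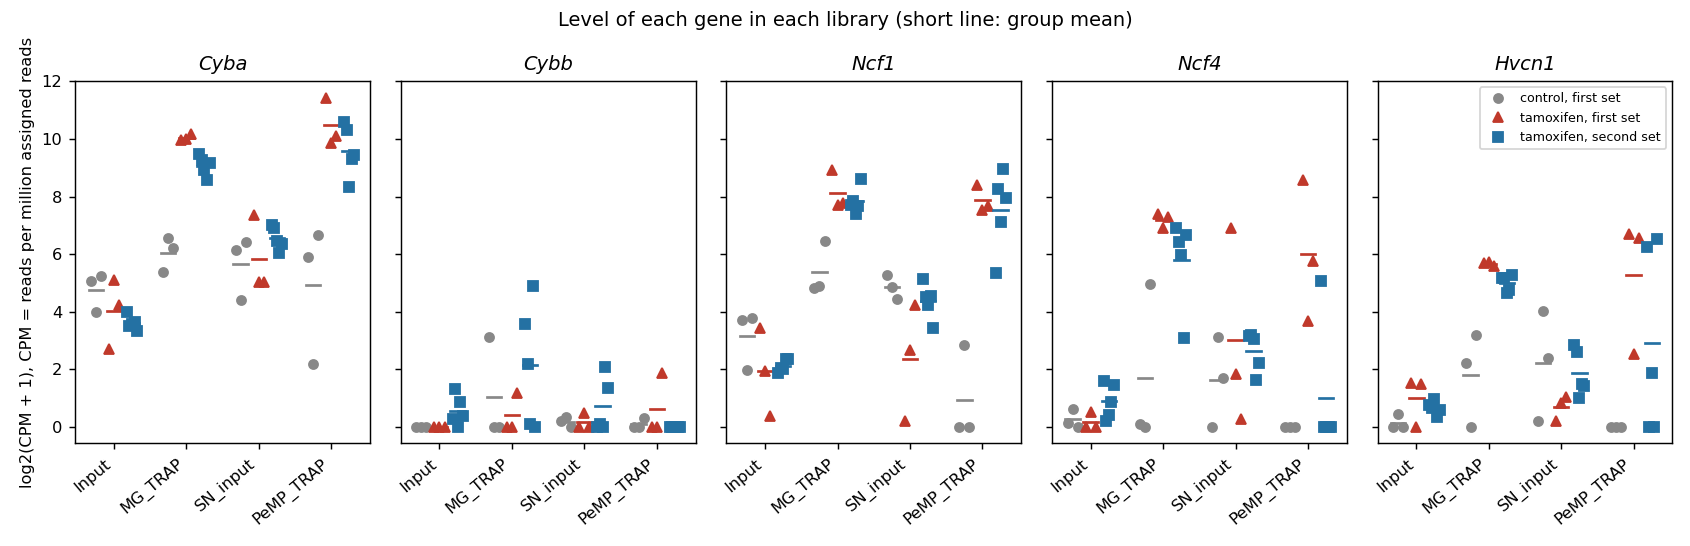
Level of each of the 5 genes in each of the 44 libraries, as log2(CPM + 1) on the vertical axis, by fraction on the horizontal axis; grey circles are controls, red triangles first-set tamoxifen, blue squares second-set tamoxifen, and short lines the group means. Cyba and Ncf1 sit high in both tamoxifen immunoprecipitates, Ncf4 and Hvcn1 split into high and empty libraries in PeMP_TRAP, and Cybb is highest in MG_TRAP, at 28.47, 10.78 and 7.79 CPM in tamoxifen letters J and G and control letter A, and at 3.5 CPM or less in the other libraries.

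Levels can be compared between genes only per length, here as CPM per kilobase of exon (RPKM). In tamoxifen MG_TRAP the medians over 8 libraries were 634 RPKM for Cyba, 58.2 for Ncf1, 54.2 for Ncf4, 10.2 for Hvcn1 and 0.116 for Cybb. The ranges of Ncf1 (45.3 to 132.7) and Ncf4 (3.68 to 83.0) overlapped, as did those of Ncf4 and Hvcn1 (6.75 to 14.6). Cyba (369.6 to 1106) lay above Ncf1, and Cybb (0 to 4.9) below Hvcn1, with no overlap. In PeMP_TRAP the order of the medians was Cyba (978.5 RPKM), Ncf1 (61.8), Hvcn1 (11.3), Ncf4 (2.89) and Cybb (0), and of these neighbours only Cyba and Ncf1 did not overlap. The membrane pair thus stood at opposite ends of the order in both immunoprecipitates.

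The first comparison asks which transcripts the pull-down enriches from whole homogenate in tamoxifen mice (n = 8 libraries a group, edgeR fit with set as covariate). The log2 fold change of MG_TRAP against Input was 5.95 for Cyba (SE 0.50), 6.49 for Ncf1 (SE 0.75), 6.73 for Ncf4 (SE 1.60), 5.90 for Hvcn1 (SE 1.28) and 4.11 for Cybb (SE 1.70). At a Benjamini-Hochberg adjusted p under 0.05, the threshold used throughout, 4.67% of all 15710 genes tested passed upward, 2.15% downward and 6.82% in either direction, and 4 of the 5 lay past it, all but Cybb. With DESeq2's size factors that upward and downward split moved from 733 and 338 genes to 594 and 528. The labels do not say that libraries of a letter share an animal, and differences within a letter are descriptions. Within letters, the difference in log2(CPM + 1) was positive in 8 of 8 letters for Cyba, Ncf1, Ncf4 and Hvcn1 and in 5 of 8 for Cybb. The authors' deposited table has columns for the first-set libraries only, so its values rest on other libraries than those of all 8 letters. In the authors' deposited table, for the contrast it names MG_TRAP Tamoxifen against Input, the log2 fold changes were 5.90 for Cyba, 6.0 for Ncf1, 9.94 for Ncf4, 7.28 for Hvcn1 and 4.56 for Cybb.

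In the synaptosome preparation the corresponding log2 fold change of PeMP_TRAP against SN_input was 3.78 for Cyba (SE 0.45), 3.90 for Ncf1 (SE 0.67), 4.30 for Hvcn1 (SE 1.21), 1.86 for Ncf4 (SE 1.35) and -2.32 for Cybb (SE 2.51). Of the 15710 genes, 6.15% passed upward, 26.1% downward and 32.3% in either direction, and 3 of the 5 lay past the threshold upward (Cyba, Ncf1 and Hvcn1). The Cybb value rests on letter F, whose 2 reads are the only Cybb reads of tamoxifen PeMP_TRAP. Without that letter all 7 libraries were at 0, and the SN_input mean of 0.758 CPM (SD 1.24, n = 7) lay under the highest detection limit of 3 reads in those libraries, 1.21 CPM, so no fold is given. Cyba and Ncf1 were higher in PeMP_TRAP in 8 of 8 letters, Hvcn1 in 6, Ncf4 in 4 and Cybb in 1. The Hvcn1 value rests on the libraries with reads: in the second set alone, where letters H and J are empty, it was 3.27, and with limma voom it was 1.82. The Ncf4 value turned negative with limma voom. The authors' deposited table, again of first-set libraries, gives 5.16 for Cyba, 4.18 for Ncf1, 4.51 for Ncf4, 5.13 for Hvcn1 and 1.86 for Cybb in the contrast it names PeMP_TRAP Tamoxifen against SN_Input.

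**Figure D2:**
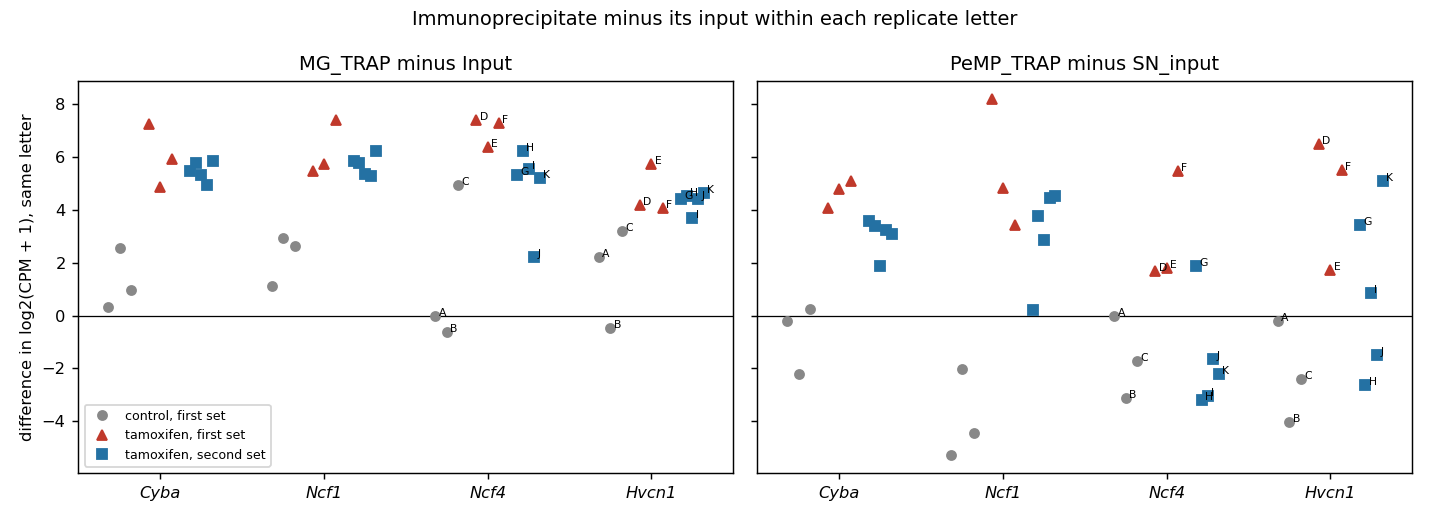
Immunoprecipitate minus its input in log2(CPM + 1) on the vertical axis for each replicate letter, for MG_TRAP minus Input (left) and PeMP_TRAP minus SN_input (right), with 4 genes on the horizontal axis; colours and symbols mark control, first-set and second-set letters, and letters are printed beside the Ncf4 and Hvcn1 points. All 8 tamoxifen letters lie above 0 for the 4 genes on the left, whereas on the right 4 letters lie below 0 for Ncf4 and 2 for Hvcn1.

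The enrichment from synaptosomes was also set against that from homogenate, as the difference of both enrichments in tamoxifen mice (n = 8 libraries in each of 4 groups). It is built from the same libraries as the contrasts above. The difference was -2.17 log2 units for Cyba (SE 0.58), -2.59 for Ncf1 (SE 0.85), -4.87 for Ncf4 (SE 1.87), -1.60 for Hvcn1 (SE 1.5) and -6.43 for Cybb (SE 2.95). The median of all 15710 genes was -0.79, 10.9% of them passed the threshold downward and 0.388% upward, and 2 of the 5 (Cyba and Ncf1) lay past it downward. Leaving out 1 letter gave -3.18 to -2.22 for Ncf1 and -5.78 to -4.38 for Ncf4, and with limma voom Ncf4 stood at -9.84.

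SN_input was compared with Input because the starting material of the second pull-down already differs from homogenate. Cyba stood 3.66 log2 units higher in SN_input of tamoxifen mice (SE 0.45), Ncf1 3.26 (SE 0.65), Ncf4 4.17 (SE 1.46), Hvcn1 2.64 (SE 1.13) and Cybb 1.97 (SE 1.59). Of all genes 2.08% passed upward and 0.465% downward, and 2 of the 5 (Cyba and Ncf1) lay past the threshold upward. The split over all genes, 327 against 73, became 134 against 109 with DESeq2's size factors and 93 against 230 with total counts. Cyba and Ncf1 were each higher in 7 of 8 letters and Ncf4 in 8 of 8. In the authors' deposited table, from first-set libraries, the contrast it names SN_Input against Input has log2 fold changes of 4.22 for Cyba, 4.34 for Ncf1, 12.79 for Ncf4, 6.39 for Hvcn1 and 6.93 for Cybb.

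Markers of several cell types moved with this contrast. All 10 microglial genes were detected on both sides, and the list summed to 150.3 to 266.8 CPM in tamoxifen Input and to 451.7 to 1160 CPM in tamoxifen SN_input. The 5 oligodendrocyte genes summed to 5985 to 7448 CPM in second-set Input and to 21340 to 59990 CPM in second-set SN_input, while the first-set ranges, 3266 to 8248 and 3146 to 16740 CPM, overlapped. The 5 astrocyte genes went from 605.5 to 843 CPM to 1329 to 1709 CPM in the second set, border macrophage markers from 7.12 to 11.57 CPM to 19.21 to 34.85 CPM, and the 5 monocyte markers from 4.3 to 11.23 CPM to 13.1 to 21.43 CPM. T cell markers went the other way in that set, from 9.95 to 18.19 CPM to 1.26 to 6.05 CPM. These 4 lists overlapped between the fractions in the first set. The 6 neuronal genes were lower in SN_input in both sets, at 2413 to 4023 CPM against 6834 to 10920 CPM in the first and 3878 to 4820 CPM against 10340 to 11100 CPM in the second. The part of these cells in the differences of Cyba and Ncf1 was not tested.

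The scaling also bears on SN_input against Input. It moved the median of all genes from -0.02 to -1.07 with total counts, and relative to the median of all genes Ncf1 stood at 3.28 and 3.12. With total counts the unshifted values were 2.74 for Cyba, 2.05 for Ncf1, 3.45 for Ncf4, 1.55 for Hvcn1 and 1.05 for Cybb.

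PeMP_TRAP was then set against MG_TRAP, to compare ribosome-bound RNA of the synaptosome preparation with that of whole homogenate. Cyba stood 1.49 log2 units higher in PeMP_TRAP (SE 0.41), Ncf1 0.67 (SE 0.59) and Hvcn1 1.03 (SE 1.05), while Ncf4 stood at -0.70 (SE 1.43) and Cybb at -4.46 (SE 2.63). Of all genes 3.17% passed upward and 22.0% downward, and 1 of the 5 (Cyba) lay past the threshold upward. The Cyba value moves with the scaling, to 0.93 with DESeq2's size factors and 0.65 with total counts, and with limma voom Ncf4 stood at -5.25. The sign of Hvcn1 turned with limma voom, and that of Ncf4 turned in the first set alone. Without letter F all 7 PeMP_TRAP libraries are at 0 for Cybb. Its MG_TRAP mean of 6.12 CPM (SD 10.6, n = 7) was 5.07-fold higher than 3 reads in the shallowest of the 7. Letter J carries that mean, and leaving it out as well, a choice made after seeing the data, gave 1.98-fold. Both figures take in depth alone and are no firm bounds. Relative to the median of all genes, which was -0.57, -1.10 and -1.30 under the 3 scalings, Cyba stood at 2.06, 2.03 and 1.95. In unscaled CPM Cyba was higher in PeMP_TRAP in 5 of 8 letters, Hvcn1 in 4, Ncf1 in 2, Ncf4 in 1 and Cybb in 1. Ncf1 turned to -0.11 with total counts.

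The second set's PeMP_TRAP libraries detected few genes, so the difference of each contrast between the sets was also fitted. The PeMP_TRAP against MG_TRAP contrast differed between sets by -0.34 for Cyba (SE 0.82), -0.07 for Ncf1 (SE 1.24) and -4.13 for Ncf4 (SE 2.55). Of 17961 genes 15.3% passed, 14.8% downward and 0.423% upward, and 1 of the 5 (Cybb) lay past the threshold. The fitted size for Cybb has no meaning because all 5 second-set PeMP_TRAP libraries were at 0, and the first set held 4 reads in MG_TRAP and 2 in PeMP_TRAP, all in letter F. Taken against 3 reads in the shallowest second-set PeMP_TRAP library, the second-set MG_TRAP mean of Cybb, 8.56 CPM (SD 11.96, n = 5), was 58.1-fold higher. Letter J carries that mean, and with letter J left out of it the figure was 24.3-fold. Both figures take in depth alone and are no firm bounds, since these PeMP_TRAP libraries detected few genes. For Ncf4, letter G is the only second-set PeMP_TRAP library with reads, and without letter D the difference between sets was -0.95. Over all single letters left out it ran from -13.69 to -0.95. For MG_TRAP against Input and for PeMP_TRAP against SN_input, 0 of 5 genes lay past the threshold for a difference between sets, against 0% and 15.1% of all genes by edgeR (14.9% downward and 0.189% upward for the latter). For the first of these, 1070 of 17961 genes had an unadjusted p under 0.05, and 316 passed with DESeq2 and 185 with limma voom.

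**Figure D3:**
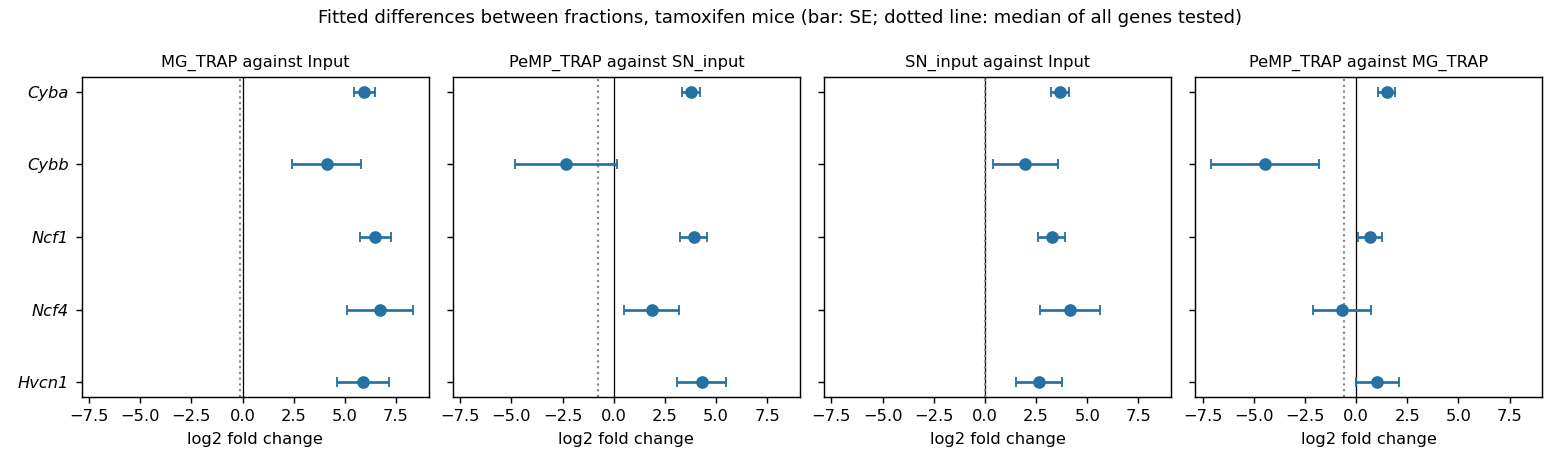
Fitted log2 fold changes of the 5 genes on the horizontal axis in 4 comparisons between fractions of tamoxifen mice; points are estimates, bars their SE, and the dotted line the median of all genes tested. Cyba and Ncf1 lie well to the right with short bars in the first 3 panels, and in the last the estimates run from -4.46 for Cybb to 1.49 for Cyba.

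The same pull-down was applied to control mice, which give the background of the immunoprecipitates. Their microglial list summed to 225.3 to 342.5 CPM in control Input and 1433 to 4383 CPM in control MG_TRAP, without overlap, and to 690.5 to 1727 CPM in control SN_input and 287.1 to 3491 CPM in control PeMP_TRAP, which overlapped. MG_TRAP against Input in controls (n = 3 libraries a group) gave 1.29 for Cyba (SE 0.91), 2.32 for Ncf1 (SE 1.33), 5.22 for Ncf4 (SE 2.07) and 4.70 for Hvcn1 (SE 2.08) on the log2 scale. Cyba and Ncf1 were higher in 3 of 3 letters, Hvcn1 in 2 and Ncf4 in 1, and without letter C the Ncf4 value was -1.99. The Hvcn1 value ran from 3.20 to 7.88 with 1 letter left out. Of all 14771 genes 0.0135% passed. PeMP_TRAP against SN_input in controls gave 0.27 for Cyba (SE 0.90) and -3.52 for Ncf1 (SE 1.49), and Ncf1 was lower in 3 of 3 letters. That Ncf1 value rests on the 7 reads of letter B, since the control PeMP_TRAP libraries of letters A and C were at 0, and it ran from -10.81 to -2.72 with 1 letter left out. For Ncf4 and Hvcn1 the control PeMP_TRAP libraries were all at 0 while SN_input held 3.32 CPM (SD 3.95) and 6.59 CPM (SD 7.87, n = 3 each). Taking 3 reads in the shallowest of these PeMP_TRAP libraries, 2.66 CPM, SN_input was at least 1.25-fold higher for Ncf4 and 2.48-fold for Hvcn1. These differences thus lie near the detection limit. No gene passed there by edgeR, 2577 had an unadjusted p under 0.05, and 1275 passed with DESeq2 and 31 with limma voom.

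Tamoxifen was compared with control within each fraction of the first set (n = 3 against 3). In MG_TRAP the log2 differences were 4.34 for Cyba (SE 1.03), 3.04 for Ncf1 (SE 1.37), 4.35 for Ncf4 (SE 1.91) and 4.05 for Hvcn1 (SE 1.95), and the tamoxifen libraries lay above all controls for each of these 4 genes. Control letter C carries the Ncf4 value with its 286 reads, and without it the fit rests on 1 control read and gave 11.21. No gene of 14771 passed by edgeR (0%), 2351 had an unadjusted p under 0.05, and 875 passed with DESeq2 and 1197 with limma voom. In PeMP_TRAP the differences were 5.29 for Cyba (SE 1.07) and 7.16 for Ncf1 (SE 1.71), with no overlap between the groups. The Cyba value was 7.01 without letter C and 4.48 without letter D. The Ncf1 value rests on control letter B, the only control with Ncf1 reads. Without it Ncf1 was at least 164-fold higher with tamoxifen (240.7 ± 82.1 CPM, SD, n = 3), against 3 reads in the shallower of the remaining control libraries. Ncf4 and Hvcn1 were at 0 in all 3 controls, so only a bound can be given, from depth alone as for Ncf1. Taking 3 reads in the shallowest control library, Ncf4 was at least 55.4-fold higher (147.3 ± 200.4 CPM, SD, n = 3) and Hvcn1 at least 25.1-fold higher (66.7 ± 53.7 CPM, SD, n = 3) with tamoxifen. Letter D carries the Ncf4 mean, and without it the bound was 12.1-fold. Without the shallowest control, letter B, the bounds were 101-fold for Ncf4 and 45.5-fold for Hvcn1. Of all genes 5.56% passed upward and 11.1% in either direction, and the 4 tested genes lay past the threshold upward, while Cybb was removed by the filter on low counts. Ncf4 and Hvcn1 were at 0 in every control PeMP_TRAP library, so nothing is read from their passing. The number of all genes passing was 1643, and 23 of 6518 on the compared groups alone, where only 1 of these 4 genes passed. That number also rests on single letters: it was 365 without letter F, 870 without C and 967 without D.

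In the inputs the differences between tamoxifen and control came with wide errors. In Input, Cyba differed by -0.37 log2 units (SE 0.90), Ncf1 by -1.10 (SE 1.29), Ncf4 by -0.62 (SE 2.0) and Hvcn1 by 3.07 (SE 1.97). In SN_input Cyba differed by 1.10 (SE 0.90), Ncf1 by -0.68 (SE 1.28), Ncf4 by 3.75 (SE 1.87) and Hvcn1 by -2.33 (SE 1.85). With 1 letter left out, Ncf4 ran from -0.26 to 5.72 in SN_input and from -3.49 to 0.96 in Input. No gene of 14771 passed by edgeR in either (0%), with 452 and 495 at an unadjusted p under 0.05, 48 and 64 passing with DESeq2 and 0 and 0 with limma voom, and the same fit of 3 against 3 passed no gene in MG_TRAP.

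Other cell types' markers also differed between tamoxifen and control immunoprecipitates. In the first set the 6 neuronal genes summed to 936.6 to 1433 CPM in tamoxifen MG_TRAP against 6307 to 9096 CPM in controls, and to 506.1 to 1501 CPM in tamoxifen PeMP_TRAP against 2689 to 7300 CPM. Oligodendrocyte genes summed to 391.2 to 1673 CPM in tamoxifen MG_TRAP against 2558 to 9900 CPM, and to 680.5 to 2855 CPM in tamoxifen PeMP_TRAP against 4368 to 15870 CPM. Astrocyte genes summed to 120.3 to 232 CPM against 279.8 to 1779 CPM in MG_TRAP, and to 76.96 to 300.8 CPM against 495.8 to 1926 CPM in PeMP_TRAP. None of these 6 pairs of ranges overlapped, and tamoxifen was the lower in each. The summed B and plasma cell list ran from 581.6 to 2333 CPM in tamoxifen MG_TRAP and from 119.4 to 3514 CPM in tamoxifen PeMP_TRAP, against 117.8 to 349.6 and 1.95 to 219.2 CPM in the controls. In PeMP_TRAP 5 of its 7 genes exceeded 3 reads in a library of the first tamoxifen set, 6 of 7 in the second and 2 of 7 in the controls, and Cd79a was the gene at 0 in both tamoxifen sets. Of 11 neutrophil genes, cells in which this oxidase is abundant, 10 were at 0 in second-set PeMP_TRAP and 9 in both the first-set tamoxifen and the control PeMP_TRAP. The list summed to 25.2 to 330.3, 0 to 363.2 and 0 to 201 CPM in those 3 groups, in the first of them from Ltf alone. Border macrophage markers summed to 83.3 to 243.6 CPM in tamoxifen MG_TRAP and to 0 to 325.5 CPM in tamoxifen PeMP_TRAP, against 0 to 17.2 and 0.885 to 302.3 CPM in the controls. In tamoxifen Input the B and plasma cell list summed to 14.6 to 97.2 CPM and the border macrophage list to 1.91 to 21.35 CPM, both below tamoxifen MG_TRAP. The neuronal and astrocyte lists went the other way, lower in tamoxifen MG_TRAP than in tamoxifen Input in both sets. The part of these cells in the levels of the 5 genes was not tested.

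The rest of the oxidase pathway was followed through a list of 49 genes, 41 of which were abundant enough to test. The list was chosen with earlier results of these data known. Its counts and adjusted p-values, here and in the paragraphs below, are therefore a description and no independent test. The 8 others were all paralogs or their partners (Nox1, Nox3, Nox4, Noxo1, Noxa1, Duox1, Duox2 and Duoxa2). In MG_TRAP against Input 12 of 41 passed, all upward (4.67% of all genes did), with a median of 1.07 on the log2 scale against -0.14 for all genes. In PeMP_TRAP against SN_input 11 passed upward and 5 downward (6.15% and 26.1% of all genes), with a median of 0.80 against -0.75 for all genes. In SN_input against Input 10 passed, all upward (2.08% of all genes), with a median of 0.94 against -0.02 for all genes. In PeMP_TRAP against MG_TRAP 3 rose and 3 fell (3.17% and 22.0% of all genes), with a median of 0.41 against -0.57 for all genes. With DESeq2's size factors the upward and downward counts of these 4 comparisons became 9 and 1, 11 and 7, 5 and 0, and 1 and 5, and with total counts 12 and 0, 12 and 5, 5 and 0, and 0 and 6.

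Cybc1, a chaperone needed for the gp91phox and p22phox pair, was lower in PeMP_TRAP than in MG_TRAP by -4.90 (SE 1.54, adjusted p = 0.0157). It was at 5.3, 39.0 and 114.1 CPM in MG_TRAP and at 0, 0 and 14.85 CPM in PeMP_TRAP (lowest, median, highest of 8). That contrast differed between the sets (adjusted p = 0.00223 by edgeR), as did PeMP_TRAP against SN_input (adjusted p = 0.000825). All 5 second-set PeMP_TRAP libraries were at 0, so the fitted sizes are no bound, and in the first set PeMP_TRAP held 0, 1.61 and 14.85 CPM against 19.26, 47.75 and 114.1 CPM in MG_TRAP.

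Of 9 GTPases and regulators, 5 rose in MG_TRAP (4.67% of all genes passed upward). Rac2, the Rac form of blood cells that completes the oxidase in phagocytes, rose by 6.57 (SE 0.74, adjusted p = 1.3e-08), while Rac1, found in most cells, stood at 278.1 ± 263.1 CPM in MG_TRAP and 154.4 ± 108.4 CPM in Input (SD, n = 8) and did not pass. Arhgdib, a GDP-dissociation inhibitor that binds Rac in blood cells, rose by 6.19, and the exchange factors Vav1 and Dock2, which load Rac with GTP, rose by 6.63 and 5.56. Arhgdia, the form found more widely, rose by 1.69, and did not pass with DESeq2's size factors (1.22). In the difference of both enrichments Rac2 stood at -3.34 (adjusted p = 0.00805) and Arhgdib at -2.33 (adjusted p = 0.0112), 2 of 5 pathway genes that passed in it, all downward. These are 5 of 41 tested, where 10.9% of all genes passed downward, with a median of -0.75 against -0.79 for all genes, so the list lay near the background.

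Among 7 kinases only Prkcd, a protein kinase C that phosphorylates p47phox, rose in MG_TRAP (4.67% of all genes passed upward), by 3.03 (SE 0.90, adjusted p = 0.0288). Prkcd did not pass with DESeq2's size factors (2.57). Pik3cg, the gamma form of phosphoinositide 3-kinase, rose by 4.67 (SE 1.11, adjusted p = 0.00463), 1 of 3 lipid kinases on the list. Clic1, a chloride channel protein linked to the charge balance of the phagosome, rose by 5.96 in MG_TRAP (SE 0.64, adjusted p = 4.54e-09) and by 3.41 in PeMP_TRAP over SN_input (SE 0.57, adjusted p = 5.96e-05). Of 4 transcription factors of myeloid cells, Spi1 (PU.1) rose by 6.70 and Irf8 by 5.61 in MG_TRAP, with adjusted p = 7.98e-08 and 6.08e-09, while Irf1 and Cebpb did not pass. Per length of exon, Spi1 and Irf8 stood at medians of 138.9 and 59.7 RPKM in the tamoxifen MG_TRAP libraries, where Cybb had a median of 0.116 RPKM.

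Of 13 enzymes that remove superoxide and peroxide, only Gpx1, a glutathione peroxidase, rose in MG_TRAP, by 3.30 (SE 0.49, adjusted p = 4.95e-06), where 4.67% of all genes passed upward. Gpx1 also rose in PeMP_TRAP over SN_input by 2.06 (SE 0.47, adjusted p = 0.00119), where 6.15% of all genes passed upward. Gpx4, Prdx6 and Sod3 fell in PeMP_TRAP against SN_input, by 1.15, 2.86 and 5.16 log2 units, with adjusted p = 0.00865, 0.000648 and 0.0479. These are 3 of 13, where 26.1% of all genes passed downward with a median of -0.75, so they lay near the background. Sod1, Gpx4 and Prdx5 were higher in SN_input than in Input (2.08% of all genes passed upward), by 1.70, 2.59 and 1.25. They were also higher in PeMP_TRAP than in MG_TRAP (3.17% of all genes), by 0.98, 1.56 and 1.12. With total counts none of the 3 passed in the latter contrast (0.40, 0.73 and 0.34), and in the former only Gpx4 did.

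**Figure D4:**
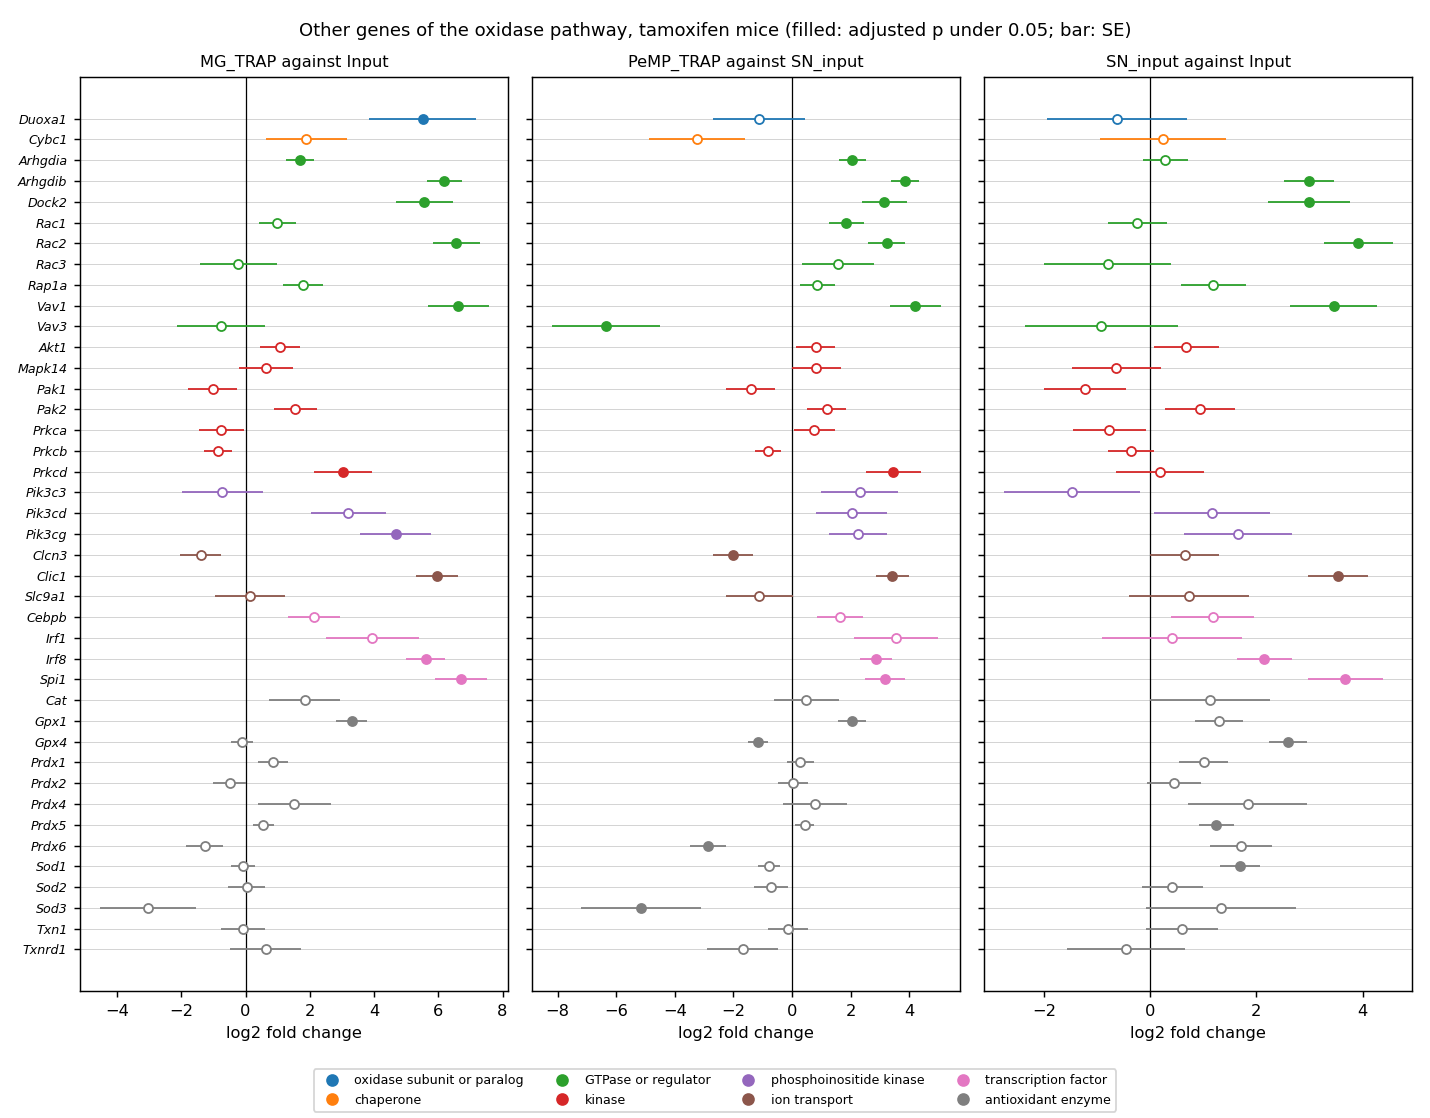
Fitted log2 fold changes (horizontal axis, bars are SE) of the 41 tested pathway genes in 3 comparisons of tamoxifen mice, coloured by role; filled points have an adjusted p under 0.05. Rac2, Arhgdib, Vav1, Dock2, Clic1, Spi1 and Irf8 are filled to the right in all 3 panels, and most antioxidant enzymes lie near 0 in the first.

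Across the 44 libraries, which mix fractions and treatments, the log2 CPM of Cyba and Ncf1 had a Pearson correlation of 0.71, Ncf4 and Hvcn1 one of 0.75, and Cybb between 0.07 and 0.26 with the other 4. The fraction and treatment are shared by all genes in a library, so these values are descriptions. Among 13875 named genes, the patterns most like Cyba over 44 libraries were those of Sparc (Pearson r = 0.934), Cst3 (0.932) and Pycard (0.932). Ncf1 was most like Slco2b1 (0.912), Ptgs1 (0.896) and Fyb (0.889). Ncf4 was most like Ms4a6b (0.849), Ecscr (0.828) and Cd84 (0.825), and Hvcn1 like Arhgap45 (0.829), Ms4a6d (0.829) and Tnfrsf13b (0.828). For Cybb no gene reached more than 0.64, the value of Pnlip.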

How the data were processed

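For each of the 44 libraries the deposited values are counts from HTSeq, given per Ensembl gene as integers. Per the labels' protocols, cDNA came from SMART-Seq v4 and was made into libraries with NEBNext Ultra II. The submitters' processing notes name FastQC 0.11.7, Trimmomatic 0.38, Bowtie2 2.3.5, STAR 2.7.0d, HTSeq 0.9.1 and edgeR; the genome build, annotation and strand setting are not given in the sources used here. The authors' deposited table of comparisons holds log2 fold changes, a score column of average expression that was not used, and p-values.

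The 50714 identifiers shared by both sets were kept, all found in GENCODE M21, and rows naming no gene (27.0% to 93.4% of reads) were left out. CPM and RPKM were computed from total assigned reads. Tests used edgeR 4.0.16 in R 4.3.3 (TMM, filterByExpr with a minimum count of 10, quasi-likelihood F test, Benjamini-Hochberg adjusted p under 0.05) on 32 tamoxifen libraries with set as covariate, or on the 24 first-set libraries; the code was tested on simulated data. DESeq2 1.42.0, limma 3.58.1, other scalings, filters, sets, a replicate block and single left-out letters were alternatives. Named genes were the 5 members, a list of 49 pathway genes and the 3 genes most correlated with each member. Members and lists were chosen with earlier results of these data known, and which contrasts led to the choice is not recorded. No test of the members is read, and those of the lists are descriptions. Some listed items are not reported here.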

Additional observations from a re-analysis of the deposited data

Results flagged for a closer look

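Among the 8 tamoxifen libraries of a fraction, 3 values stood apart from the others by Dixon's criterion on log2(CPM + 1) (20 groups examined, and chance marks about 1 in 20 groups). Ncf4 in MG_TRAP was lowest in letter J, at 7.44 CPM, and Ncf4 in SN_input was highest in letter D, at 117.9 CPM. Cybb in PeMP_TRAP was highest in letter F, at 2.7 CPM, which is 2 reads in the shallowest library.

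By the fits' own tests of a difference between contrasts, 3 values stood out, and none is read as a finding. For Cyba (-2.17 log2 units) and Ncf1 (-2.59) the enrichment from synaptosomes was set against that from homogenate, both from the libraries used to choose the genes, and 10.9% of all genes passed the same way. The Ncf1 call was lost without any of the letters F, G, H, I, J and K, with DESeq2's size factors, total counts, limma voom or the replicate block. For Cybb the contrast of PeMP_TRAP with MG_TRAP was called between sets, with a fitted value of -10.53 that has no meaning as a size. It compares 5 PeMP_TRAP libraries at 0 with a first set that holds Cybb reads only in letter F, and the call was lost without any of the letters D, E, F, H and J.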

How the results depend on the processing

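Of 97 recounts of called members under another scaling, filter, tool, set or block, 76 stayed within 1.5 times the main count, as did 87 of 100 recounts without 1 letter. These tallies include contrasts with a main count of 0, where a recount of 0 is taken as unchanged, so they are no measure of stability. For PeMP_TRAP against MG_TRAP the count of 1 became 0 with DESeq2's size factors (RLE), total counts, DESeq2 or the first set alone, 2 in the second set alone, and 1 to 2 without 1 letter. For SN_input against Input the count of 2 became 1 with total counts and 0 with limma voom or the first set alone. For the difference of the enrichments, 2 became 1 with RLE factors, total counts, limma voom or the replicate block, 0 in the first set alone (edgeR, 883 genes at an unadjusted p under 0.05), 3 in the second set alone (Cyba, Ncf1, Cybb), and 1 to 3 without 1 letter. For the set contrasts of PeMP_TRAP, limma voom called 2 (against MG_TRAP) and 2 (against SN_input), and leaving out 1 letter gave 0 to 2 and 0 to 1. Tamoxifen against control called 1 member in MG_TRAP with RLE factors, no filter or DESeq2 and 4 with limma voom, and 1 in PeMP_TRAP on the compared groups alone. DESeq2 called 1 in control PeMP_TRAP against SN_input. The cause of these changes was not tested.

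Signs turned as follows. With limma voom Ncf4 in PeMP_TRAP against SN_input was -2.17 and Hvcn1 in PeMP_TRAP against MG_TRAP -2.06; in the latter contrast Ncf1 was -0.11 with total counts and Ncf4 1.27 in the first set alone. Hvcn1 in the difference of enrichments was 0.53 in the first set alone. The set contrast of PeMP_TRAP with MG_TRAP was 0.20, 0.08 and 0.20 for Cyba and 0.52, 0.39 and 0.52 for Ncf1 with RLE factors, total counts and DESeq2. That of MG_TRAP with Input was 0.08 (DESeq2) and 0.18 (voom) for Cybb, 0.02 (total counts) for Ncf1, and 0.28, 0.37, 0.13 and 0.29 for Hvcn1 (RLE, total counts, no filter, DESeq2). Control Cyba in PeMP_TRAP against SN_input was -0.07 with total counts, -0.29 with voom and -0.01 with the replicate block. Without 1 letter, signs turned for control Cyba in PeMP_TRAP against SN_input (-0.85 to 0.62) and control Ncf4 in MG_TRAP against Input (-1.99 to 7.32). They turned for tamoxifen against control in Cyba Input (-1.17 to 0.11), Ncf4 Input (-3.49 to 0.96) and Ncf4 SN_input (-0.26 to 5.72). In the set contrasts of MG_TRAP with Input they turned for Cyba (-1.01 to 0.00), Cybb (-2.80 to 4.06), Hvcn1 (-0.54 to 0.78) and Ncf1 (-1.11 to 0.01). They also turned in those of PeMP_TRAP with MG_TRAP for Cyba (-0.91 to 1.04), Hvcn1 (-1.38 to 0.59) and Ncf1 (-0.61 to 0.36), and with SN_input for Ncf1 (-3.08 to 0.24).

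Whether libraries of a letter share an animal is not given in the sources used here. Same-letter correlations of deviations from the group means ran from -0.039 to 0.224 over pairs of fractions. In 22 of 66 comparisons a library correlated best with its own letter, more often than an even draw among 11 letters would give. Shared material within letters is therefore not excluded, and the main fits, which did not pair the letters, do not account for it. With the replicate block 849 genes passed in the difference of enrichments against 1770 without it, and of the 2 members that passed without the block Ncf1 (-2.87) did not pass with it. Low depth limits the first-set PeMP_TRAP libraries, whose detection limits of 3 reads reach 4.05 CPM.

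Counts over all genes moved by more than 1.5 times, beside the moves given in the report, as follows. MG_TRAP against Input called 1071 genes, and 2626 with no filter, 1753 with DESeq2, 1796 with voom, 3576 on the compared groups alone and 329 in the first set. PeMP_TRAP against SN_input called 5074, and 8078 with voom, 2449 on the compared groups and 372 in the first set. PeMP_TRAP against MG_TRAP called 3952, and 6100 with no filter, 6939 with voom, 1363 on the compared groups, 6653 in the second set and 0 in the first (edgeR, 1377 unadjusted). SN_input against Input called 400, and 243 with RLE factors, 209 with voom, 2779 on the compared groups, 607 in the second set and 6 in the first. The difference of enrichments called 4600 in the second set. The set contrasts of PeMP_TRAP called 2743 (against MG_TRAP) and 2710 (against SN_input), and 4599 and 7531 with voom. Tamoxifen against control in PeMP_TRAP called 1643, and 4109 with DESeq2 and 23 on the compared groups. Control MG_TRAP against Input called 2, and 4 with RLE factors, 17 with no filter, 223 with DESeq2, 37 with voom and 8 with the replicate block. Without 1 letter, SN_input against Input called 195 to 251 (without E, G, H, I or K), the difference of enrichments, 1770 in all, 1014 to 1162 (G, H, I or J), the set contrasts of PeMP_TRAP 1433 and 1601 against MG_TRAP and 1691 and 1496 against SN_input (E and F), and that of MG_TRAP against Input 2 (D, against 0). Tamoxifen against control in MG_TRAP called 0, and 46, 7 and 2 without B, D and E, and 17, 11 and 52 with RLE factors, total counts and no filter. Control MG_TRAP against Input called 0 without A, B or C, and control PeMP_TRAP against SN_input, at 0, called 1 and 2 without C and E, 1 with total counts and 16 with no filter. The set contrast of MG_TRAP against Input called 4 with no filter.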
